A study of Mus musculus with 12 samples.

Results

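The 10 genes described here encode the glucocorticoid receptor, its close relative, the chaperones that hold the receptor ready for hormone and the enzymes that interconvert active and inactive glucocorticoids: Nr3c1, Nr3c2, Hsp90aa1, Hsp90ab1, Stip1, Ptges3, Fkbp4, Fkbp5, Hsd11b1 and Hsd11b2. They were taken by name from the 54532 gene rows of the count table, of which 36214 held at least 1 count, and all 10 were found. They were measured by poly(A) RNA-seq in 12 libraries from mouse fetal ovaries, in 4 groups of 3 libraries: saline germ cells, dex germ cells, saline somatic cells and dex somatic cells. All embryos were female and came from the strain Tg(Pou5f1-EGFP)2Mnn, whose Pou5f1-ΔPE-eGFP (OCT4-GFP) reporter marks germ cells. Pregnant dams received dexamethasone (dex, a synthetic glucocorticoid) at 10 μg per g of body weight, or saline of equal volume, in 4 daily intraperitoneal injections from E12.5 to E15.5, and the ovaries, freed of the mesonephroi, were collected on the last of these days. GFP+ cells were sorted as germ cells and all live GFP- cells as somatic cells, so the somatic libraries mixed several cell types, and each library pooled ovaries from at least a pair of independently dosed litters. The question for these genes was whether the parts of the receptor pathway upstream of transcription were present in both cell types, and whether dex changed their transcripts.

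The glucocorticoid receptor sits in the cytoplasm in a complex with Hsp90 until a steroid binds. Hsp70 and Hsp90 load and fold the receptor in turn, with Stip1 (Hop) as the adaptor between these chaperones and Ptges3 (p23) stabilising the mature complex. Fkbp5 and Fkbp4 then compete for the same docking site on Hsp90: Fkbp4 links the receptor to dynein for transport to the nucleus, while Fkbp5 lowers its affinity for hormone and is itself a classical receptor target that closes a short feedback loop. Before hormone reaches the receptor, Hsd11b2 inactivates natural glucocorticoids and Hsd11b1 regenerates them. Dex is a poorer substrate for inactivation than the natural hormone.

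The docking site is encoded in the last codons of both cytosolic Hsp90 genes, and these are shown because Stip1, Fkbp4 and Fkbp5 all bind the tail they encode. The last 30 coding bases, stop codon included, were read from the GENCODE M21 transcripts (GRCm38), and capitals mark the 5 codons before the stop.
Hsp90aa1: gacacatcacgcATGGAAGAAGTAGACtaa
Hsp90ab1: gatgcctcgcgcATGGAAGAGGTGGATtaa
The stretch of Hsp90aa1 lies in exon 11 of 11 on the minus strand, at chr12:110691540-110691569. That of Hsp90ab1 also lies in exon 11 of 11 on the minus strand, at chr17:45568015-45568044. The stretches differed at 7 of 30 bases and within the capitals at 3 of 15. Over the whole coding sequences, 76.4% of 2175 aligned bases were identical, and the longest identical run was 33 bases. No window of 100 bases was shared between these genes, so a fragment of that length could be assigned to one or the other.

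The libraries held 14658503 to 18245507 assigned counts, so that 3 counts, the floor used here, corresponded to 0.169 to 0.196 CPM (the count of a gene scaled to a fixed library size). Library sizes for CPM were scaled by TMM, and floors cover counting error only. The 95% intervals of log2 fold changes come from the edgeR fit and include the spread between libraries. The sort was clear in most of its markers. Ddx4, a germ cell RNA helicase, had 608 ± 22.9 CPM in saline germ libraries and 1.11 ± 0.563 CPM in saline somatic libraries (SD, n = 3). The stromal collagen gene Col1a1 had 43.0 ± 12.6 and 7390.4 ± 507 CPM, respectively. Of 12 germ cell markers, edgeR called 11 higher in saline germ cells and 1 lower. Of 10 endothelial markers 1 was called higher there and 9 lower, and of 7 surface epithelium markers 1 higher and 6 lower. Of all genes, 43.1% were called higher and 42.9% lower. Expressed as a percentage of the somatic level, the median gene of each somatic marker list was at 0.358% (erythroid) to 8.49% (pregranulosa) in the germ libraries. In somatic cells, markers of some cell types moved with dex, where edgeR called 5.21% of all genes higher and 3.76% lower. The summed level of 10 macrophage markers ran from 235 to 307 CPM in saline and from 71.6 to 165 CPM in dex libraries, with 3 of 10 genes called lower. Of 8 perivascular markers 4 were called higher, with sums of 988 to 1011 CPM in saline and 987 to 1213 CPM in dex. Of 10 endothelial markers 3 were called lower and 1 higher, and of 10 stromal markers 2 were called higher. Of 12 pregranulosa markers 1 was called lower, and of 10 germ cell markers tested 2 were called higher, with sums of 54.2 to 55.3 CPM in saline and 60.7 to 93.2 CPM in dex. The other 8 germ cell markers tested were not called, and the list median log2 fold change was 0.73, beside 0.00 for all genes. The markers moved unequally: Dazl went from 1.17 to 12.6 CPM, Ddx4 from 1.11 to 1.73 CPM and Pou5f1 from 3 counts in all to 0. Of 4 adrenal cortex markers tested 2 were called higher, and Cyp11b1 had 0 counts in all 6 somatic libraries. No marker of the erythroid, surface epithelium or mesonephric lists was called. In bulk libraries, fewer cells of a type and less RNA per cell cannot be told apart, and the part of these shifts in the somatic values given here was not tested.

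Both receptor genes were transcribed in both cell types, Nr3c1 far above Nr3c2. Nr3c1 was 1.90-fold higher in saline germ cells than in saline somatic cells, whereas Nr3c2 was low everywhere and did not separate the cell types. Nr3c1, the glucocorticoid receptor gene (chromosome 18, 39410545 to 39491301, minus strand, GRCm38), was at 165, 159.8 and 155 CPM in the saline germ libraries and at 91.2, 80.0 and 81.5 CPM in the saline somatic libraries. The dex germ libraries held 149.9, 163 and 155 CPM, the dex somatic libraries 83.1, 76.8 and 64.4 CPM. All 6 germ libraries lay above all 6 somatic libraries. The share of all genes that separate without overlap between the cell types was not counted, for Nr3c1 or for the members below. The log2 difference, germ over somatic, was 0.92 in saline (95% interval 0.77 to 1.08, edgeR BH-adjusted p = 1.08e-09) and 1.03 after dex (95% interval 0.84 to 1.22, edgeR BH-adjusted p = 1.03e-07). In these comparisons 43.1% of 17941 genes tested in saline were called higher in germ cells and 42.9% lower, and after dex 42% of 18171 were higher and 42.1% lower, so a call between the cell types was the usual outcome for any gene. Of 9 members tested, 8 were called under each treatment, 4 higher and 4 lower.

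Nr3c2 (chromosome 8, 76899442 to 77245012, plus strand), the mineralocorticoid receptor gene, whose protein binds natural glucocorticoids tightly, reached 4.39, 4.43 and 3.89 CPM in the saline germ libraries against 3.26, 3.81 and 3.64 CPM in the saline somatic ones. These groups did not overlap, but after dex the germ libraries spread from 2.62 to 4.48 CPM across the somatic range of 3.32 to 4.29 CPM. The log2 difference was 0.24 in saline (95% interval -0.25 to 0.74, edgeR BH-adjusted p = 0.340) and -0.06 after dex (95% interval -0.69 to 0.56, edgeR BH-adjusted p = 0.839). Per transcript length (FPKM), Nr3c1 exceeded Nr3c2 33.0 ± 1.64-fold in saline germ cells (SD, n = 3) and 20.8 ± 3.22-fold in saline somatic cells. After dex the ratio was 38.9 ± 10.1 in germ cells and 17.7 ± 4.01 in somatic cells.

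The cytosolic Hsp90 genes were inverted between the cell types. Germ cells carried mostly Hsp90aa1, the stress-inducible isoform in most tissues, and somatic cells mostly Hsp90ab1, the constitutive one. Hsp90aa1 (chromosome 12, 110690605 to 110702728, minus strand) held 3986, 3837 and 3718 CPM in the saline germ libraries, against 763, 796 and 629 CPM in the saline somatic ones, a difference of 2.40 on the log2 scale (95% interval 2.21 to 2.58, edgeR BH-adjusted p = 1.89e-14). After dex the difference was 2.26 (edgeR BH-adjusted p = 3.08e-12). Hsp90ab1 (chromosome 17, 45567775 to 45573271, minus strand) held 1867, 1659.98 and 1892 CPM in the saline germ libraries, against 2957, 2838 and 2955 CPM in the saline somatic ones, a difference of -0.69 (95% interval -0.84 to -0.54, edgeR BH-adjusted p = 4.38e-08). After dex the difference was -1.0004 (edgeR BH-adjusted p = 6.79e-09). Neither gene overlapped between the cell types under either treatment.

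On the FPKM scale, Hsp90aa1 made up 61.9 ± 1.92% of the sum of both genes in saline germ cells (SD, n = 3) and 61.4 ± 0.352% after dex. In somatic cells its share was 16.0 ± 1.86% in saline and 14.2 ± 0.507% after dex. The sum itself differed less, at 1583 ± 68.1 FPKM in saline germ cells and 1125 ± 22.5 FPKM in saline somatic cells. By mean FPKM, Hsp90aa1 held rank 7 among 22046 protein-coding genes in germ cells under both treatments, against rank 149 in saline and 166 in dex somatic cells. Hsp90ab1 held rank 18 in germ cells under both treatments, and in somatic cells rank 16 in saline and 14 after dex. Part of Hsp90aa1 is nearly identical to other genes: 38.0% of its 100-base windows also occur in 3 genes, Gm12346, Gm5844 and Gm5511, so its counts carry an uncertainty that Hsp90ab1, with none, does not. The highest level of those 3 in any library was 17.4 CPM, for Gm12346.

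**Figure D1:**
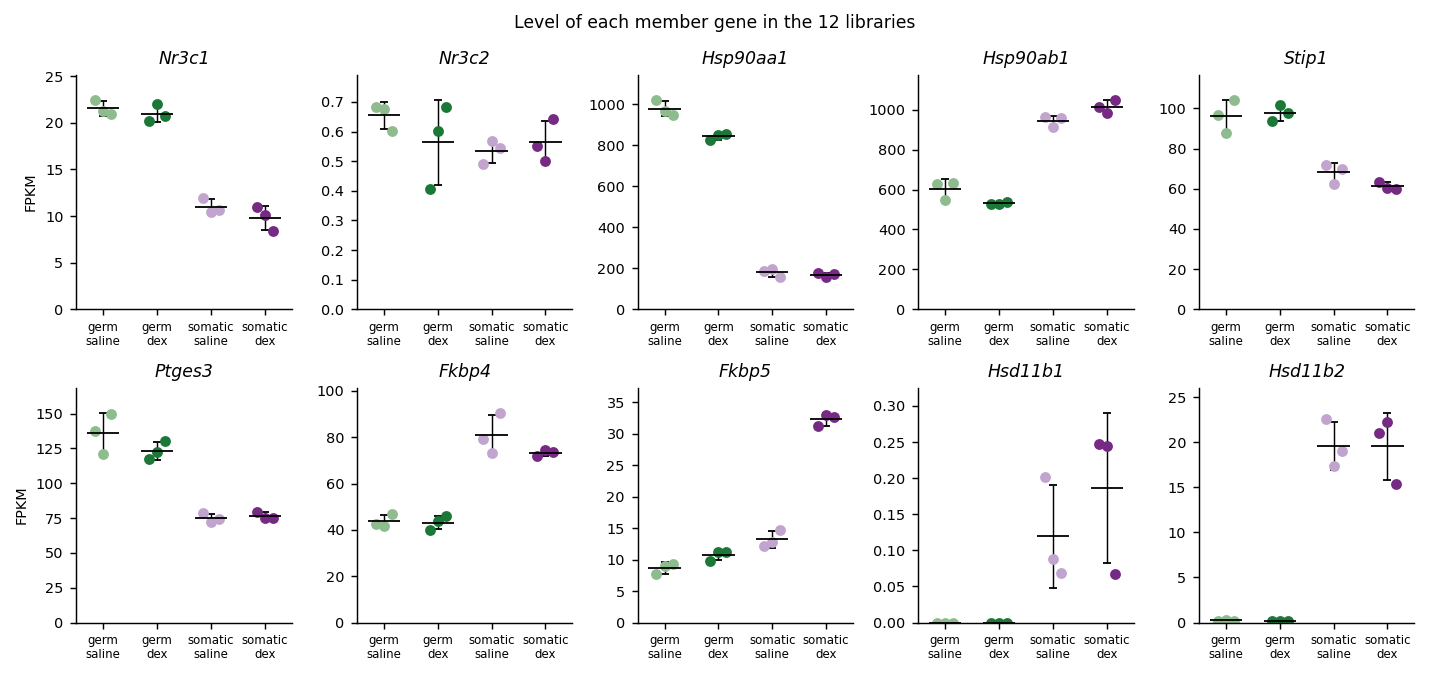
FPKM (linear axis from 0, one scale per gene) of the 10 genes in each library, with 3 points per group, the mean as a line and bars of 1 SD. The germ libraries stand above the somatic ones for Nr3c1, Hsp90aa1, Stip1 and Ptges3 and below them for Hsp90ab1, Fkbp4, Fkbp5 and Hsd11b2, and Fkbp5 in dex somatic cells stands apart at 31.1 to 33.0 FPKM.

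Among the co-chaperones, the genes that act during assembly were higher in germ cells and both immunophilin genes were lower. Stip1 (chromosome 19, 7020696 to 7040026, minus strand) held 208, 192 and 225 CPM in the saline germ libraries, against 160.3, 141 and 156 CPM in the saline somatic ones. The log2 difference was 0.45 in saline (95% interval 0.29 to 0.61, edgeR BH-adjusted p = 2.82e-05) and 0.61 after dex (edgeR BH-adjusted p = 1.01e-06). Ptges3 (chromosome 10, 128058954 to 128077272, plus strand) held 301, 270.1 and 330.5 CPM in the saline germ libraries, against 178, 165 and 169.8 CPM in the saline somatic ones. All germ values of both genes lay above the somatic ones. For Ptges3 the log2 difference was 0.81 (95% interval 0.65 to 0.97, edgeR BH-adjusted p = 1.97e-08) and after dex 0.62 (edgeR BH-adjusted p = 9.27e-07). Of the 100-base windows of Ptges3, 17.3% also occur in 2 other genes, of which Ptges3-ps reached 18.9 CPM, and 3.24% of those of Stip1 occur in Cfap20, which reached 82.0 CPM.

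Fkbp4 (chromosome 6, 128429735 to 128438677, minus strand), which encodes FKBP52, held 118, 118 and 130.3 CPM in the saline germ libraries, against 227, 211 and 260.3 CPM in the saline somatic ones, again with no overlap. The log2 difference was -0.93 (95% interval -1.10 to -0.76, edgeR BH-adjusted p = 4.29e-09), and after dex -0.83 (edgeR BH-adjusted p = 8.28e-08). Fkbp5 (chromosome 17, 28399094 to 28517527, minus strand), which encodes FKBP51, held 71.9, 86.0 and 87.9 CPM in the saline germ libraries, against 118, 126 and 143 CPM in the saline somatic ones, a log2 difference of -0.66 (95% interval -0.84 to -0.47, edgeR BH-adjusted p = 2.21e-06). After dex that difference was -1.66 (95% interval -1.82 to -1.49, edgeR BH-adjusted p = 1.12e-10). In saline, then, both immunophilin genes were lower in germ cells, and their FPKM ratio, Fkbp5 to Fkbp4, was 0.198 ± 0.0182 in germ cells and 0.164 ± 0.0112 in somatic cells (SD, n = 3).

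**Figure D2:**
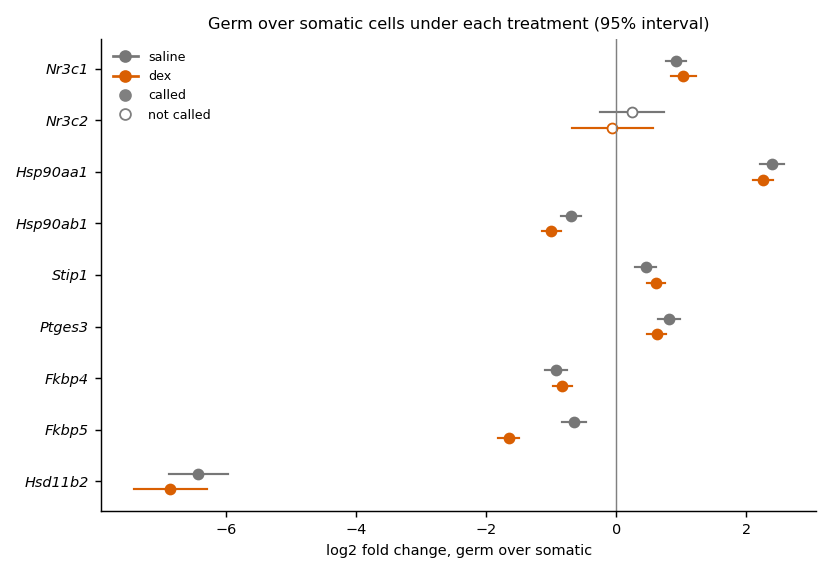
Log2 fold change (linear axis), germ over somatic cells, of the 9 genes tested, with the 95% interval, in saline and after dex, filled where called by edgeR. Hsp90aa1 in saline, at 2.40, and Hsd11b2 after dex, at -6.86, mark the ends, and Fkbp5 is the gene whose dex point, at -1.66, stands farthest from its saline point at -0.66.

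The enzyme genes were read almost entirely in the somatic libraries. Hsd11b2 (chromosome 8, 105518755 to 105523988, plus strand), which inactivates corticosterone, held 678, 511 and 593 counts in saline somatic cells and 662, 746 and 495 after dex, or 29.1 to 42.5 CPM. The saline germ libraries held 6, 9 and 6 counts and the dex germ libraries 5, 6 and 4, or 0.239 to 0.531 CPM, all above the 3-count floor. The log2 difference was -6.44 in saline (95% interval -6.89 to -5.98, edgeR BH-adjusted p = 4.54e-15) and -6.86 after dex (95% interval -7.42 to -6.30, edgeR BH-adjusted p = 1.62e-11). Each germ library held 0.648% to 1.43% of the somatic mean, with a median of 0.990%. The same percentage had a median of 0.665% for stromal, 1.04% for surface epithelium, 1.36% for perivascular, 2.10% for endothelial, 4.32% for mesonephric, 7.17% for macrophage and 7.78% for adrenal cortex markers. The low germ counts of Hsd11b2 therefore lay within the range over these somatic lists, and whether they came from germ cells was not tested.

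Hsd11b1 (chromosome 1, 193221634 to 193264075, minus strand), which regenerates corticosterone, was near the limit of detection. It held 14, 6 and 5 counts in saline somatic cells, 18, 19 and 5 after dex, and 0 in each of the 6 germ libraries. Its somatic mean was 2.88-fold the germ floor of 3 counts in saline and 4.28-fold after dex. Single somatic libraries lay closer to these floors of 0.182 and 0.190 CPM, with minima of 0.303 CPM in saline and 0.294 CPM after dex. The fit reported did not test it between the cell types. Alternative fits that kept it, such as DESeq2, called it lower in germ cells, with effect sizes that rest on 0 germ counts. Hsd11b1 overlaps Lamb3 on the opposite strand, which reached 12.55 CPM. The strand setting of the counting is not given in the sources used here, so reads of the 2 genes cannot be told apart where they overlap. In somatic cells Hsd11b2 exceeded Hsd11b1 in every library, by 112-fold to 274-fold in saline and by 85.0-fold to 229-fold after dex in FPKM.

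Ordered by FPKM, germ cells ran from Hsp90aa1 through Hsp90ab1, Ptges3, Stip1, Fkbp4, Nr3c1, Fkbp5, Nr3c2 and Hsd11b2 to Hsd11b1 under both treatments, from 980.01 FPKM for Hsp90aa1 in saline to 0, with no overlap between neighbours. In saline somatic cells the order was Hsp90ab1, Hsp90aa1, Fkbp4, Ptges3, Stip1, Hsd11b2, Fkbp5, Nr3c1, Nr3c2 and Hsd11b1. There Fkbp4 at 80.9 ± 8.83 FPKM and Ptges3 at 75.0 ± 3.24 FPKM (SD, n = 3) were the neighbours whose libraries overlapped. After dex the somatic order changed at 2 places: Ptges3 stood above Fkbp4, and Fkbp5 moved from below Hsd11b2 to above it.

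Dex raised Fkbp5 in somatic cells, and edgeR called no other member there and none in germ cells, where DESeq2 called Hsp90aa1 and the edgeR fit with no low-count filter called Fkbp5. The somatic libraries held 118, 126 and 143 CPM of Fkbp5 in saline and 300.5, 321 and 319 CPM after dex. All 3 dex libraries lay above all 3 saline libraries, with a gap wider than the spread of either group. The log2 fold change was 1.29 (95% interval 1.14 to 1.44, edgeR BH-adjusted p = 9.40e-10), or 2.45-fold. Of 10 members tested this was the 1 called, against a background of 5.21% of 16556 genes called higher and 3.76% called lower. Fkbp5 has no 100-base window in common with another gene, and the 4 annotated genes that overlap it reached at most 1.74 CPM.

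The germ libraries held 71.9, 86.0 and 87.9 CPM of Fkbp5 in saline and 92.1, 106 and 107 CPM after dex. The groups did not overlap, but the log2 fold change of 0.33 (95% interval 0.16 to 0.50, unadjusted p = 0.000988) missed the threshold over all genes (edgeR BH-adjusted p = 0.123). It passed when genes with low counts were kept (edgeR BH-adjusted p = 0.00763, range over the alternatives 0.00763 to 0.491). The means lay 19.8 CPM apart in germ cells and 185 CPM apart in somatic cells, so the germ difference equalled 10.7% of the somatic one. As a share of the somatic level, that lies within the ranges of the pregranulosa, macrophage and adrenal cortex markers in the germ libraries, which reached 13.3%, 15.8% and 20.3%, and above the highest value of the other 6 lists, 8.27%. The former maxima came from dex libraries, and in saline these lists reached 9.28%, 6.75% and 8.08%, below the germ difference. Such percentages also depend on the somatic level. The summed macrophage markers had somatic medians of 284 CPM in saline and 151 CPM after dex, and germ medians of 43.4 and 46.6 CPM. The adrenal cortex percentage rested on 3 genes in saline and 4 after dex. The share of somatic RNA in the germ difference was not tested. The responses of the 2 cell types differed by -0.97 on the log2 scale (germ minus somatic, 95% interval -1.21 to -0.73, edgeR BH-adjusted p = 3.44e-05). Hsd11b1 had 0 counts in every germ library, so its response could not be compared in that test, and Hsd11b2 had only 4 to 9 counts there. Of the 10 members entered, Fkbp5 was the 1 called, against 0.567% of 19390 genes called higher and 1.25% called lower. With library totals and no scaling factors, the split of those calls over all genes went from 110 higher and 242 lower to 174 higher and 160 lower.

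Fkbp4 was not called in either cell type, and the ratio of the immunophilin transcripts differed between the treatments. Fkbp4 had a log2 fold change of -0.14 in somatic cells (95% interval -0.29 to 0.01, edgeR BH-adjusted p = 0.268) and of 0.00 in germ cells (95% interval -0.14 to 0.15, edgeR BH-adjusted p = 0.989). The FPKM ratio of Fkbp5 to Fkbp4 in somatic cells was 0.164 ± 0.0112 in saline and 0.441 ± 0.00660 after dex (SD, n = 3). In germ cells it was 0.198 ± 0.0182 in saline and 0.248 ± 0.00815 after dex, so the ratio was higher in germ cells than in somatic cells in saline, and lower after dex, with no overlap of the libraries in any of these 4 pairs of groups. These ratios are descriptions with no test.

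**Figure D3:**
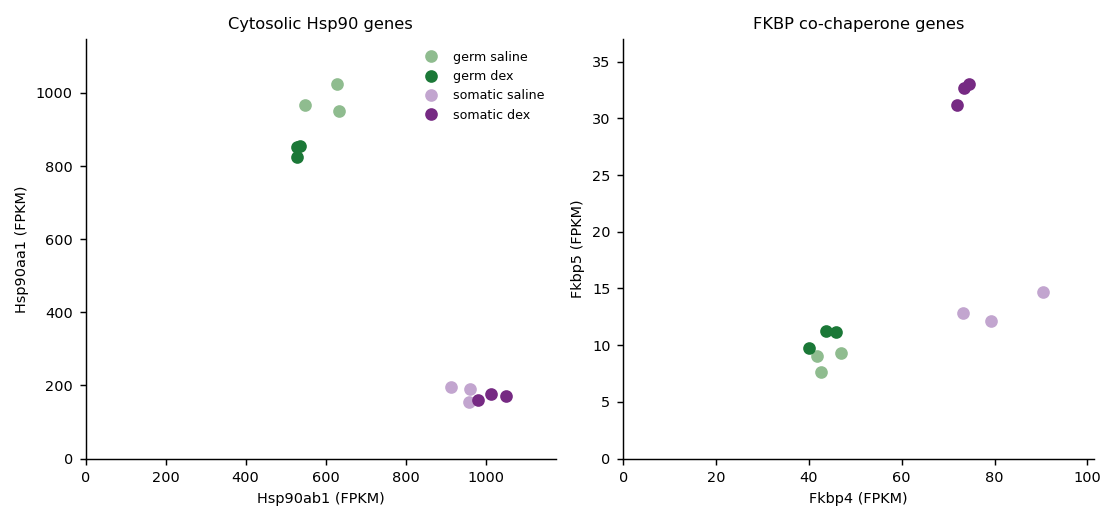
FPKM of Hsp90aa1 against Hsp90ab1 (left) and of Fkbp5 against Fkbp4 (right), 1 point per library, linear axes from 0. The germ and somatic libraries separate on the left, with Hsp90aa1 shares of 61.9% and 16.0% in saline, and on the right the dex somatic libraries leave the others upward at a ratio of 0.441.

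Neither receptor gene was called after dex. Nr3c1 had a log2 fold change of -0.02 in germ cells (95% interval -0.16 to 0.12, edgeR BH-adjusted p = 0.945) and one of -0.17 in the somatic libraries (95% interval -0.35 to 0.02, edgeR BH-adjusted p = 0.299). The responses of the cell types were not called different (0.14, edgeR BH-adjusted p = 0.630). For Nr3c2, with 40 to 75 counts per library, the values were -0.19 in germ cells (95% interval -0.71 to 0.33) and 0.08 in somatic cells (95% interval -0.46 to 0.61), at edgeR BH-adjusted p of 0.802 and 0.906.

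After dex edgeR called neither Hsp90 gene in germ cells, although for both each dex library lay below each saline library. How many of all genes separate in this way was not counted, here or for the other members. Hsp90aa1 went from 3718 to 3986 CPM in saline to 3234 to 3394 CPM after dex, a log2 fold change of -0.19 (95% interval -0.32 to -0.07, edgeR BH-adjusted p = 0.235). DESeq2 called it (adjusted p = 0.0470, range over the alternatives 0.0470 to 0.537). Hsp90ab1 went from 1659.98 to 1892 CPM in saline to 1579 to 1626 CPM after dex (-0.16, 95% interval -0.30 to -0.02, edgeR BH-adjusted p = 0.355). None of the 8 members tested in germ cells was called, against 0.142% of 16857 genes called higher and 0.125% lower. Fkbp5, Hsp90aa1 and Hsp90ab1 were the 3 of these 8 with an unadjusted edgeR p under 0.05, as were 1945 of the 16857 genes. DESeq2 and the fit without a low-count filter each called 1 member.

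In somatic cells the Hsp90 genes moved apart in sign but not in call. Hsp90ab1 was at 2838 to 2957 CPM in saline and 3021 to 3247 CPM after dex, without overlap, with a log2 fold change of 0.11 (95% interval -0.01 to 0.22, edgeR BH-adjusted p = 0.289). Hsp90aa1 was at -0.09 (95% interval -0.26 to 0.07, edgeR BH-adjusted p = 0.560). For Hsp90ab1 the responses of the cell types differed by -0.28 (95% interval -0.45 to -0.10), which was not called by edgeR (BH-adjusted p = 0.109) and was called by DESeq2 (adjusted p = 0.0440) and by edgeR without saline germ replicate 2 (BH-adjusted p = 0.0361), over a range of 0.0361 to 0.285 across the alternatives. Stip1 had log2 fold changes of 0.05 in germ cells (edgeR BH-adjusted p = 0.839) and -0.15 in the somatic libraries (edgeR BH-adjusted p = 0.168). Ptges3 had -0.12 (edgeR BH-adjusted p = 0.571) and 0.03 (edgeR BH-adjusted p = 0.843), respectively.

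Neither enzyme gene was called in somatic cells. Hsd11b2 had a log2 fold change of 0.00 (95% interval -0.30 to 0.29, edgeR BH-adjusted p = 0.991), and its groups overlapped throughout. Hsd11b1, with at most 19 counts in a library, had 0.64 with a 95% interval of -0.66 to 1.93 (edgeR BH-adjusted p = 0.627), so the direction of any change was not resolved. In germ cells neither passed the low-count filter.

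**Figure D4:**
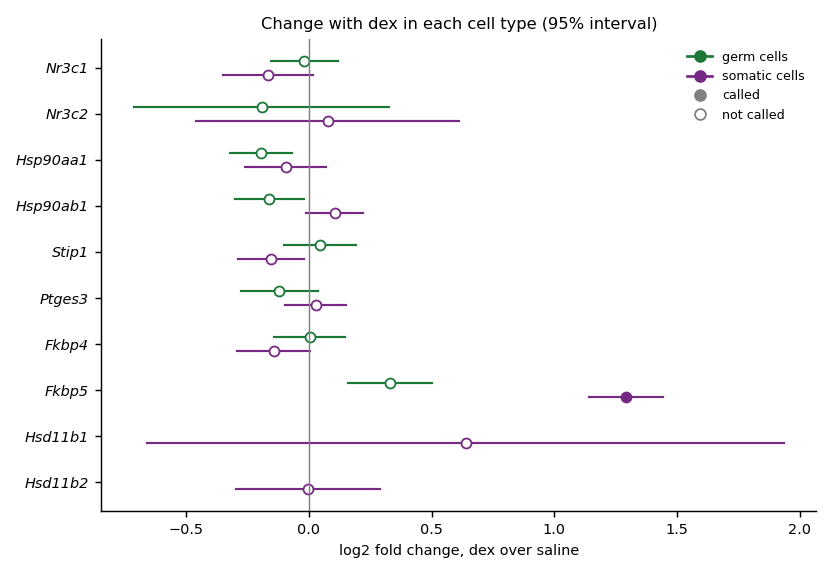
Log2 fold change, dex over saline, with the 95% interval for each gene in germ and somatic cells (linear axis), filled where called by edgeR. Fkbp5 in somatic cells, at 1.29, is the only filled point, Fkbp5 in germ cells lies at 0.33, and the other intervals, except those of Hsp90aa1 and Hsp90ab1 in germ cells and Stip1 in somatic cells, include 0.

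The rest of the pathway was read from 4 lists of other genes. The lists of chaperones, coregulators and transport genes had medians close to that of all genes in both cell types, and the listed target genes had higher ones. Of 37 co-chaperones and partners of Hsp90 and Hsp70, 0 were called in germ cells by edgeR and 2 in somatic cells, both lower, against 3.76% of all genes there, a share close to that of the list. In germ cells 7 had an unadjusted edgeR p under 0.05, beside 1945 of all 16857 genes tested, and DESeq2 called 1, as lower. The somatic count ran from 2 to 4 lower over the alternatives and was 4 without dex replicate 1. Their median log2 fold change was -0.07 in germ cells, beside 0.01 for all genes tested, and -0.04 in somatic cells, beside 0.00. Hsph1, an Hsp110 nucleotide exchange factor for Hsp70, fell in somatic cells from 108 to 79.6 CPM (-0.44, edgeR BH-adjusted p = 0.000236). Dnaja1, an Hsp40 that delivers clients to Hsp70, fell from 320.01 to 257 CPM (-0.31, edgeR BH-adjusted p = 0.00193). Neither response was called different between the cell types (edgeR BH-adjusted p = 0.254 for Hsph1 and 0.0876 for Dnaja1).

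Between the cell types in saline, 20 of these 37 were higher in germ cells and 14 lower, close to the background. Values follow for 5 of them, chosen after their values were seen. They do not stand for the list, whose median log2 difference was 0.40, beside 0.00 for all genes. The Hsp70 gene Hspa1b had means of 4.001 CPM in germ and 58.4 CPM in somatic libraries (log2 difference -3.87, edgeR BH-adjusted p = 1.75e-13). The small heat shock protein gene Hspb1 had 1.97 and 51.0 CPM (-4.68, edgeR BH-adjusted p = 3.60e-14). Bag3, an Hsp70 co-chaperone of stressed cells, had 9.72 and 88.3 CPM (-3.18, edgeR BH-adjusted p = 1.84e-14). Hsf2, which encodes a heat shock factor, went the other way with 105 and 44.3 CPM (1.24, edgeR BH-adjusted p = 2.14e-10). Hsf1, which encodes the main stress-activated factor, had 66.6 and 69.0 CPM (-0.06, edgeR BH-adjusted p = 0.492).

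Of the receptor's coregulators (30 listed), edgeR called 0 in germ cells, where 29 could be tested, and 0 in somatic cells. An unadjusted edgeR p under 0.05 was found for 6 and 7 of them, respectively, beside 1945 of 16857 and 3461 of 16556 genes tested. DESeq2 called 0 in either. In somatic cells 1 was called without the filter, with a replicate block, with library totals, and without dex replicate 1 or dex replicate 3. Of 23 genes for ligand supply, transport and receptor trafficking, 17 were tested, with 0 called in germ cells by edgeR or DESeq2 (2 at an unadjusted p under 0.05) and 1 in somatic cells. This was H6pd, which supplies NADPH to Hsd11b1 in the endoplasmic reticulum: its somatic mean rose from 65.8 to 102 CPM (0.64, SE 0.07, edgeR BH-adjusted p = 9.81e-06). Its germ means were 20.2 and 19.9 CPM (0.00, edgeR BH-adjusted p = 0.999), and the responses differed by -0.65 (edgeR BH-adjusted p = 0.00851). The steroid exporter gene Abcb1a, named after its values were seen, was on the germ side of the same list, with saline means of 35.5 CPM in germ and 2.79 CPM in somatic libraries (3.66, edgeR BH-adjusted p = 4.79e-06). P-glycoprotein, its product, carries dex among other compounds.

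Of 24 receptor target genes other than Fkbp5, 5 of 18 tested rose in germ cells and 16 of 22 rose in somatic cells by edgeR, against 0.142% and 5.21% of all genes called higher. edgeR and DESeq2 called none lower, and 1 was called lower in somatic cells with no low-count filter, with a replicate block, and without saline replicate 1 or dex replicate 2. The list was drawn with earlier results of these data known, so its direction is not independent evidence. Its median log2 fold change was 0.46 in germ cells and 0.78 in somatic cells, beside 0.01 and 0.00 for all genes. The 5 in germ cells were Zbtb16, Per1, Hif3a, Nfkbia and Ddit4, with log2 fold changes of 2.96, 1.91, 1.35, 0.99 and 0.79 and edgeR BH-adjusted p from 0.000487 to 0.0246. The share of somatic RNA in these germ rises was not tested. Zbtb16 and Ddit4 lost their germ calls, leaving 3, without saline replicate 3, dex replicate 2 or dex replicate 3. In somatic cells the count ran from 12 to 17 over the alternatives. The 5 steepest in somatic cells were Zbtb16, Klf9, Cebpd, Pdk4 and Fam107a, at 6.94, 3.16, 2.25, 2.16 and 1.96. The response was called smaller in germ cells for 5 targets, Zbtb16, Klf9, Cebpd, Tsc22d3 and Errfi1, and larger for 1, the NF-kappaB inhibitor gene Nfkbia (0.88, edgeR BH-adjusted p = 0.000251), against 1.25% and 0.567% of all genes. The call for Zbtb16 was lost without saline germ replicate 2, saline germ replicate 3 or saline somatic replicate 2 (edgeR BH-adjusted p up to 0.112). Tsc22d3 and Errfi1 were named after their values were seen. Fkbp5, at 1.29 in somatic cells, lay between Tsc22d3 at 1.08 and Hif3a at 1.45. In germ cells its 0.33, itself not called, lay below the list median of 0.46, where 13 of the 18 targets tested were not called.

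**Figure D5:**
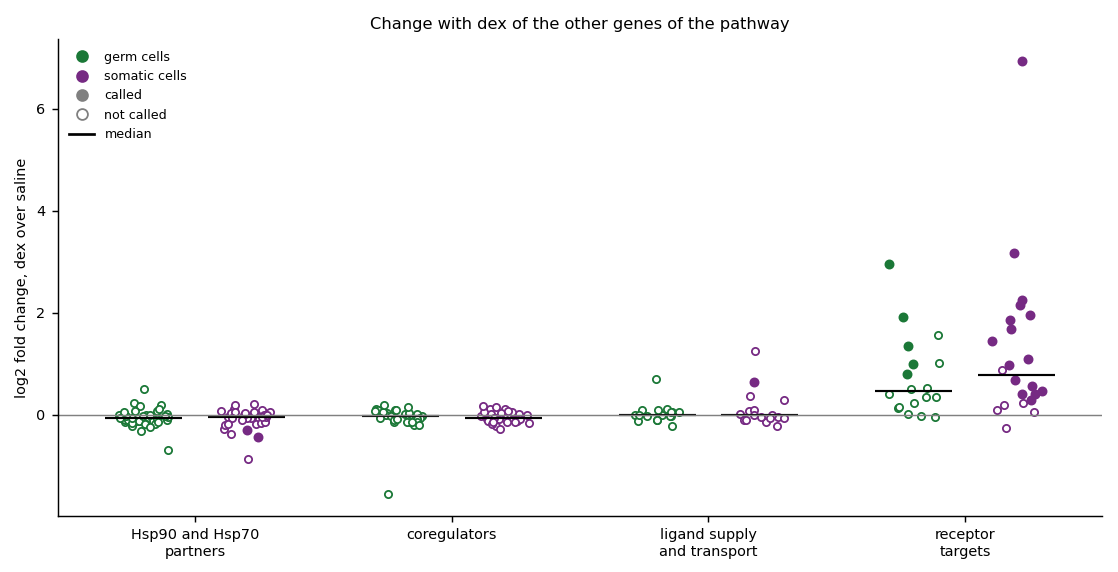
Log2 fold change, dex over saline, of each tested gene of the 4 lists in germ and somatic cells (linear axis), filled where called by edgeR, with the median of each list as a line. The first 3 lists have medians between -0.07 and 0.00, and the receptor targets have medians of 0.46 in germ cells and 0.78 in somatic cells.

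Genes with the most similar profile were sought for Nr3c1 and Fkbp5 among the 10706 genes averaging 10 CPM or more, by the root mean square difference of centred log2(CPM + 1) over the 12 libraries. For Nr3c1 they were Arhgap32, Rabl3, Hyou1, Kif3b and Uhrf1bp1, at differences of 0.0687, 0.0779, 0.0790, 0.0817 and 0.0911. Arhgap32, the nearest, was at 186, 177, 91.7 and 84.4 CPM in saline germ, dex germ, saline somatic and dex somatic cells, each time beside Nr3c1 at 160.05, 156, 84.2 and 74.8 CPM. For Fkbp5 they were Klf13, Klhl2, Dtx4, Klhl29 and Rusc2, at 0.195, 0.201, 0.258, 0.259 and 0.285. Klf13, a Krüppel-like transcription factor gene, was at 40.4, 53.0, 54.4 and 131 CPM in the same order of groups. These likenesses are descriptions over libraries that share their sort and treatment.

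Promoter windows of RefSeq (GRCm38.p6, 250 bases before to 50 after a start) were given for 6 members: Nr3c2, Fkbp4, Fkbp5, Ptges3, Stip1 and Hsd11b1. They were searched on both strands for a glucocorticoid response element (AGAACA, any 3 bases and TGTTCT, with up to 2 mismatches to the 12 fixed bases), for AGAACA or TGTTCT alone, and for a heat shock element (3 units alternating GAA and TTC with any 2 bases between). None of the 6 windows held any of them, while 1.84%, 19.0% and 0.603% of all 32851 windows did, respectively. This says only that these letters are not in these windows.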

How the data were processed

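Counts per gene were deposited for all 12 libraries. Per the labels, reads were aligned to mm10 (GRCm38) with HISAT2 2.0.5 and counted with featureCounts 1.5.0-p3; strand and multi-mapping settings are not given in the sources used here. The authors also deposited FPKM per gene, used here only to compare genes, and DESeq2 1.20.0 tables of their own fold changes and p-values, which were not used.

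Counts were tested with edgeR 4.0.16 in R 4.3.3 (quasi-likelihood F test, TMM scaling, filterByExpr, Benjamini-Hochberg (BH) adjustment over all genes tested, called at 0.05 or less). The 5 comparisons were dex against saline in each cell type, the difference of these effects over all 12 libraries, and germ against somatic cells under each treatment. The difference test had its own filter. P-values set each difference against the spread between the pooled libraries. The spread between single embryos or litters was not measured. The procedure was tested on simulated counts. Groups came from the sample titles.

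The members, lists and tests were chosen with earlier results of these data known. Genes named were all members; up to 5 called rises and 5 called falls per pathway list and dex comparison within a cell type; and 5 genes nearest in profile to Nr3c1 and Fkbp5. 10 marker lists (germ, pregranulosa, stromal, endothelial, perivascular, macrophage, erythroid, surface epithelium, mesonephric, adrenal cortex) described the sort. A further pathway list is not reported here.

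Alternatives were DESeq2 1.42.0, median-of-ratios size factors, no low-count filter, a replicate block, each library left out in turn and, added after seeing the data, library totals without scaling factors. Sequence windows came from GENCODE M21 transcripts. Of the 10 members 8 had the same coordinates there as in the deposited table, whose coordinates are given. Protein sequences were not used here, and of the promoters those of 4 members were not used here.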

Additional observations from a re-analysis of the deposited data

Results flagged for a closer look

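The response of Fkbp5 to dex differed between the cell types, by -0.97 on the log2 scale (germ minus somatic, edgeR BH-adjusted p = 3.44e-05). All 3 dex libraries lay above all 3 saline libraries in both cell types, at 300.5 to 321 against 118 to 143 CPM in somatic cells and at 92.1 to 107 against 71.9 to 87.9 CPM in germ cells. In germ cells alone the change was not called (edgeR BH-adjusted p = 0.123). The difference was called under every alternative tried, with values from -1.05 to -0.91 and adjusted p of at most 0.000263.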

How the results depend on the processing

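The calls between cell types and of somatic Fkbp5 were kept under every alternative: 528 of 549 log2 fold changes of single members kept their direction and side of the threshold, and 103 of 122 counts stayed within 1.5 times the count reported. In germ cells, where 45 genes were called, DESeq2 called 158 genes and 1 member, the fit without a low-count filter called 324 genes and 1 member, and leaving out single libraries gave 19 to 92 genes: 19 without saline replicate 3, 20 without dex replicate 2, 76 without saline replicate 2 and 92 without dex replicate 1. Somatic calls, 1485, ran from 842 to 2050 over omissions and numbered 989, 916 and 842 when saline replicates 1, 2 and 3 were left out. For the difference of the effects, 352 calls became 620 with 2 members under DESeq2, 748 without the filter, and 192 to 450 with 1 to 2 members when single libraries were left out (220 without saline germ replicate 3, 233 without dex germ replicate 2, 196 and 192 without saline somatic replicates 2 and 3). Members that were not called changed sign near 0 in some fits. Fkbp4 in germ cells was at -0.00460 under DESeq2 and -0.00299 without the filter, and at -0.0348 to 0.0467 over single omissions. Nr3c1 in germ cells was at 8.39e-05 with library totals and at -0.0540 to 0.0125 over omissions, and Stip1 there at -0.0178 to 0.0965. In somatic cells Ptges3 was at -0.00720 with library totals, Nr3c2 at -0.0314 to 0.148 and Hsd11b2 at -0.119 to 0.139 over omissions. Nr3c2, germ over somatic after dex, was at 0.0166 under DESeq2, 0.0135 with median-of-ratios factors and -0.195 to 0.136 over omissions. The cause of these changes was not tested. The median log2 fold change of all genes, germ over somatic, was 0.21 in saline and 0.32 after dex under DESeq2, which tests other genes, against 0.00 in the fit reported; no called member changed direction.

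A fit with the replicate number as a block (replicate block) called 59 genes in germ cells, 1733 in somatic cells and 365 for the difference, with 0, 1 and 1 members. The labels do not say that a number marks shared litters, and the libraries were not treated as paired. Of 18 same-number pairs 1 had a correlation of deviations over 0.1 (range -0.02 to 0.13). As a hint from the data, all 6 libraries in each germ and somatic pair of groups of the same treatment correlated best with their own number. Those same-number correlations were 0.0553 to 0.0868 in saline and 0.0674 to 0.0991 after dex. Whether such libraries shared a sort cannot be told from these values. The depth limits Hsd11b1 and Nr3c2, with at most 19 and 75 counts in a library.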

Other observations

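In somatic cells H6pd, which feeds NADPH to Hsd11b1, rose to 102 CPM in dex libraries that held 5 to 19 counts of Hsd11b1 each.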
